A study of Mus musculus with 8 samples.

Results

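A set of 10 genes that mark stages of maturation in natural killer (NK) and CD8 T cells were followed through single-cell RNA libraries of mouse lung adenocarcinomas. Members were taken by symbol, all 10 of them among 32286 gene features. The early genes were Cd27, Crtam and Ltb, the late genes were Zeb2, Cx3cr1 and Klrg1, and Itgam, Eomes, Tbx21 and Cd226 completed the list. They were chosen by the UMIs per cell of the early against the late genes in marker-defined NK and CD8 T cells, and by the difference of these values between the groups. Values from that contrast are therefore given as a description without a test. The tests concern CD4 T cells and the split of each class by its own Cd27 UMIs. Between NK and CD8 T cells within tumours they concern genes other than the members. The rule also read levels in NK and CD8 T cells, so calls of members between those classes are a description.

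Tumours were started in KPC mice with lentiviral particles given into the trachea, and the largest were dissected 16 weeks later. Both groups carried CRISPR activation in the tumour cells. Its guides (dRNAs) were against Malat1, a long noncoding RNA, in the group labelled mA1, and against Tomato in the group labelled Con. Each group had 4 tumours in 2 libraries, and cells that carried the same 1 of 2 hashtag antibodies in a library were counted as 1 tumour. The labels state neither whether the hashtags of a library were separate animals nor the age of the mice, so p-values may measure the spread between tumours only.

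The 4 matrices held 48319272 to 74996867 UMIs in 4939 to 10168 barcodes, and 24838 cells were kept. Malat1 made up 2.67% and 4.17% of UMIs in epithelial cells of the mA1 libraries, against 4.02% and 2.61% in those of the Con libraries, so the groups overlapped for the gene that the guides target. Below, mA1 and Con name the libraries that carry these labels. Both tumours of Con library 2 (Con tumours 3 and 4) stood apart in expressing Xist, at 1186 and 1178 CPM in NK cells with no Ddx3y UMI. In the other 6 tumours Ddx3y was at 52.4 to 84.3 CPM in NK cells. Results that rest on Con library 2 are given with and without it. Pairs of libraries shared 89 to 269 kept barcodes, of which 10 fell in NK, 6 in CD8 T and 7 in CD4 T cells.

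NK cells kill without antigen-specific receptors, and as they mature in the mouse they gain CD11b (the product of Itgam), lose CD27 and acquire KLRG1 and CX3CR1. T-bet (Tbx21) and eomesodermin (Eomes) are the T-box factors of this lineage, and ZEB2 is a transcriptional repressor needed for its last steps. CD8 T cells use much of the same programme when naive or memory cells, which carry CD27, become terminal effectors with KLRG1 and CX3CR1.

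Cells were classed by marker gates. NK cells carried at least 2 of Ncr1, Klrb1c and Klre1 and no Cd3 UMI, and CD8 T cells carried Cd3 and Cd8 but no Cd4 or Trdc UMI. The NK gate held 1689 cells (78 to 528 per tumour, 210061 to 1630898 UMIs) and the CD8 T gate 1338 cells (86 to 356 per tumour, 340844 to 1860111 UMIs). The gate for NK cells does not part them from type 1 innate lymphoid cells (ILC1). Levels are UMIs of a gene scaled to a common UMI total of the class in each tumour (CPM).

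In NK cells of mA1 tumours 2 of the 3 early genes stood higher and all 3 late genes overlapped. Cd27, a co-stimulatory receptor of the tumour necrosis factor receptor family, had 74.0, 81.9, 86.7 and 95.2 CPM in the mA1 tumours, against 36.1, 67.8, 36.8 and 49.9 CPM in the Con tumours. All mA1 tumours lay above all Con tumours. The means were 84.4 ± 8.87 CPM in mA1 and 47.6 ± 14.8 CPM in Con (SD, n = 4 each), a log2 fold change of 0.86 ± 0.22 (SE) from edgeR. Without both tumours of Con library 2 it was 0.56.

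Ltb encodes lymphotoxin beta, the membrane anchor of a lymphoid-tissue cytokine. It had 64.5, 104, 126 and 105 CPM in mA1 NK cells, against 64.2, 45.9, 30.0 and 20.6 CPM in Con NK cells. The groups did not overlap, although mA1 tumour 1 and Con tumour 1 nearly met. The log2 fold change was 1.48 ± 0.27 (SE), and 0.85 without Con library 2, whose tumours had the lowest Ltb. Crtam, an adhesion receptor of activated cytotoxic cells, was sparse, with 42 UMIs in all NK cells. Its levels of 19.0, 7.31, 17.3 and 33.3 CPM in mA1 and 16.1, 5.98, 4.91 and 1.72 CPM in Con overlapped, and it did not pass the filter on low counts.

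Zeb2 had 894, 702, 789 and 705 CPM in NK cells of mA1 tumours, against 843, 709.7, 957 and 1003 CPM in those of Con tumours. The 2 highest values were those of Con library 2. Its log2 fold change was -0.15 ± 0.12 (SE), and -0.01 without that library. Cx3cr1, the fractalkine receptor, averaged 94.8 ± 14.9 CPM in mA1 and 115 ± 21.7 CPM in Con NK cells (SD, n = 4 each), a log2 fold change of -0.30 ± 0.17 (SE) that was -0.04 without Con library 2. Klrg1, an inhibitory lectin-like receptor that binds cadherins, averaged 222 ± 36.5 CPM in mA1 and 236 ± 54.7 CPM in Con. Its log2 fold change was -0.13 ± 0.14 (SE) and turned to 0.13 without Con library 2. All 3 late genes overlapped between the groups.

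Itgam encodes the alpha chain of the integrin Mac-1. In NK cells it had 323, 227, 225 and 199.9 CPM in the mA1 tumours, against 241, 247, 369.7 and 378 CPM in the Con tumours. Both high Con values came from Con library 2, and the log2 fold change of -0.31 ± 0.15 (SE) was 0.01 without it. Eomes averaged 206 ± 36.6 CPM in mA1 and 254 ± 25.4 CPM in Con, a log2 fold change of -0.25 ± 0.14 (SE) that was -0.42 without Con library 2. Tbx21 averaged 187 ± 28.3 CPM in mA1 and 203 ± 16.6 CPM in Con, and Cd226, an activating adhesion receptor, 64.6 ± 11.5 CPM in mA1 and 59.9 ± 7.84 CPM in Con (SD, n = 4 each). All 4 overlapped between the groups.

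**Figure D1:**
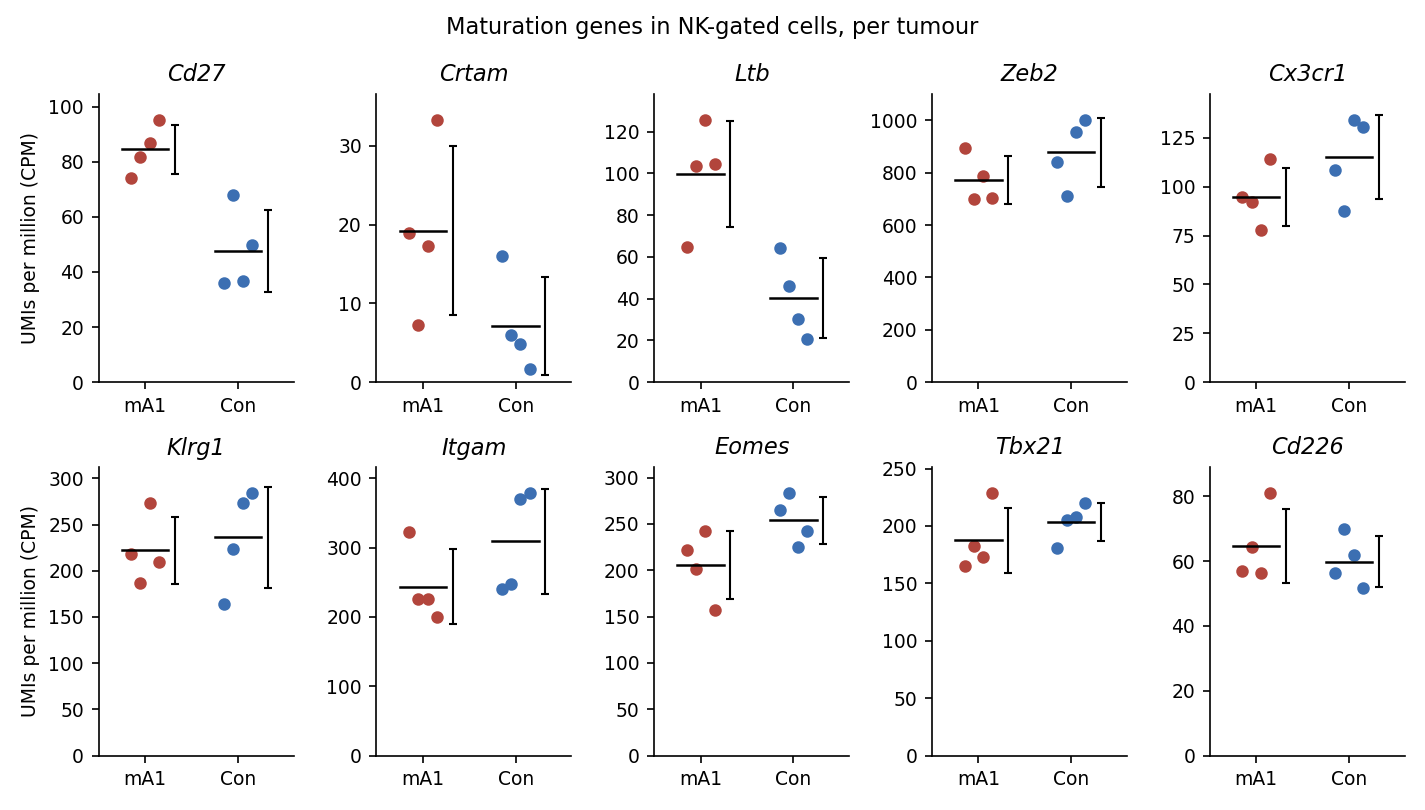
Level of each maturation gene in NK-gated cells, in CPM (linear axis from 0), with 1 point per tumour, mA1 left of Con. Horizontal lines are means and bars beside them SDs over 4 tumours; every mA1 point lies above every Con point for Cd27 and Ltb, and the other 8 genes overlap.

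Of 5763 genes tested between the groups in NK cells, 16 passed an adjusted p of 0.05 with edgeR's quasi-likelihood test (0.278%), 4 of them higher (0.0694%) and 12 lower (0.208%) in mA1. Every mA1 tumour lay above every Con tumour for 1.3% of these genes, and below for 3.16%. The choice of members used this contrast, so their separation is not read against those shares.

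Counted per cell, as in the rule, the 3 early genes together had 0.407, 0.576, 0.624 and 0.628 UMIs per NK cell in mA1 tumours, against 0.218, 0.253, 0.222 and 0.215 in Con tumours. The 3 late genes had 3.12, 2.93, 3.09 and 2.77 UMIs per NK cell in mA1, against 2.09, 2.16, 4.22 and 4.23 in Con. The early sum was higher in every mA1 tumour, whereas the late sum in mA1 lay between Con library 1 and Con library 2. NK cells had median UMIs of 2274 to 2590 in mA1 tumours, 1829 and 1841 in Con library 1 and 2672 and 2793 in Con library 2. Across mA1, Con library 1 and Con library 2 the late sum had the same order as this depth, and the early sum did not. Only within mA1 and within each Con library did the order of tumours by late sum differ from that by depth. A part of depth in the late sum was not tested. The mean log2 level of the early genes minus that of the late genes, on the CPM scale, was -2.53, -2.47, -2.13 and -1.87 in mA1, against -2.84, -3.10, -4.11 and -4.54 in Con.

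With each cell thinned to 1000 UMIs, 4.00%, 8.44%, 5.95% and 5.13% of NK cells of mA1 tumours held a Cd27 UMI, against 3.94%, 5.24%, 3.62% and 4.10% of those of Con tumours. These shares overlapped, and so did thinned Ltb, at 70.0, 88.9, 47.6 and 38.5 UMIs per 1000 cells in mA1 and 47.2, 39.3, 28.6 and 15.4 in Con. Thinned Crtam did not overlap, at 15, 8.89, 11.9 and 38.5 UMIs per 1000 cells in mA1 and 0, 0, 1.90 and 0 in Con, but rested on 1 to 3 UMIs in each mA1 tumour and at most 1 in each Con tumour. Cells with a UMI of any early gene were 10.0%, 14.2%, 10.7% and 11.5% in mA1, against 8.66%, 8.73%, 6.29% and 5.64% in Con. Cells with an early and no late gene were 7.50%, 7.56%, 7.14% and 7.69% in mA1, against 3.94%, 5.68%, 3.43% and 2.56% in Con. For both of these shares every mA1 tumour lay above every Con tumour. Cells with a UMI of any late gene were 61.5%, 56.4%, 58.3% and 59.0% in mA1, against 53.5%, 58.1%, 69.9% and 71.8% in Con. The highest of these late shares were again those of Con library 2. Unthinned, the shares of cells with Cd27 were 11.8% to 21.8% in mA1 and 6.02% to 11.8% in Con. Macrophages, which should lack Cd27, had a mean thinned share of 0.436% at the same 1000 UMIs. By Cd27 and Itgam together, the stages used for mouse NK cells, cells with Itgam alone were 23.0%, 20%, 17.9% and 15.4% in mA1, against 21.3%, 21.8%, 27.6% and 31.3% in Con. The 2 high values were those of Con library 2, and Con library 1 lay within the range of mA1. Cells with Cd27 alone were 4.88 ± 1.41% in mA1 and 3.49 ± 0.657% in Con (SD, n = 4 each). Most cells held a UMI of neither gene after thinning, 75.1 ± 3.53% in mA1 and 70.3 ± 4.54% in Con, so that the stage of most cells could not be told at this depth.

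Other genes of early NK and naive T cells had positive values that did not pass the test. Of 18 on the list, 13 were tested in NK cells, all 13 had a positive log2 fold change (median 0.41) and none passed, where 50.9% of all tested genes were positive with a median of 0.01. The highest were Il7r, the interleukin-7 receptor, at 1.15 ± 0.31 (SE; adjusted p = 0.151), the adhesion gene Emb at 0.73 ± 0.25 (adjusted p = 0.417) and Tcf7, the factor TCF-1, at 0.67 ± 0.30 (adjusted p = 0.557; edgeR with Benjamini-Hochberg adjustment). Without Con library 2, 9 of 13 were positive with a median of 0.20. This and the other lists were chosen with earlier results of these data known, so such counts are not independent support. None of 18 late genes passed, with a median of -0.06, nor did any of 12 regulators (median -0.09) or 6 tested partners of the members (median 0.06).

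Marker sums of ILC1 and of gamma-delta T cells had higher means in NK-gated cells of mA1 tumours, with overlapping ranges and no test. The sum of 6 ILC1 markers was 66.6 to 145 CPM in NK cells of mA1 tumours and 22.4 to 72.2 CPM in those of Con tumours. Within it, Il7r, which is also on the early list, had a mean of 41.4 CPM in mA1 and 20.3 CPM in Con, and Cxcr6 10.7 CPM in mA1 and 2.69 CPM in Con. The sum of 3 gamma-delta markers was 99.4 to 165 CPM in mA1 and 80.3 to 109 CPM in Con, with Trdv4 at a mean of 63.6 CPM in mA1 and 35.7 CPM in Con, Trdc at 67.4 CPM in mA1 and 57.0 CPM in Con, and Tcrg-C1 at 1 UMI in mA1 and 0 in Con. The T cell marker Trac was at 3.796 to 13.0 CPM in mA1 and 8.03 to 12.0 CPM in Con, with Cd3d, Cd3e and Cd3g at 0 by the gate. The sum of 8 macrophage and monocyte markers was 1569 to 7229.6 CPM in mA1 and 1657 to 2614 CPM in Con. Much of it was Ly6c2, which is also on the late list, at a mean of 1429 CPM in mA1 and 1294 CPM in Con. Lyz2 had a mean of 1219 CPM in mA1 and 425 CPM in Con. That of 4 neutrophil markers was 0 to 49.3 CPM in mA1 and 24.5 to 1033 CPM in Con, and that of 2 red blood cell markers 4.76 to 1306 CPM in mA1 and 12.9 to 108 CPM in Con. Neither the presence of these cell types in the gate nor their part in the values of Cd27 and Ltb was tested. The exception is that without cells rich in myeloid markers the log2 fold changes were 0.93 for Cd27 and 1.54 for Ltb.

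In CD8 T cells Cx3cr1 was lower in every mA1 tumour on the CPM scale only, and the other members overlapped between the groups. Cx3cr1 had 17.0, 16.4, 24.7 and 8.78 CPM in mA1, against 38.1, 28.0, 24.7 and 49.3 CPM in Con. Every mA1 tumour lay below every Con tumour, although mA1 tumour 3 and Con tumour 3 nearly met. In UMIs per cell the groups overlapped, with 0.121 in mA1 tumour 3 and 0.105 in Con tumour 2. With each cell thinned to 1000 UMIs they overlapped too. The thinned levels were 31.0, 34.8, 20.2 and 10.1 UMIs per 1000 cells in mA1, against 81.4, 39.5, 47.8 and 21.4 in Con. The log2 fold change was -0.91 ± 0.29 (SE), from 161 UMIs in all, and -0.89 without Con library 2. Zeb2 had 42.5, 67.6, 88.5 and 28.1 CPM in mA1, against 129, 80.5, 68.3 and 100.04 CPM in Con, which overlapped, with a log2 fold change of -0.56 ± 0.31 (SE).

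Klrg1 was scarce in CD8 T cells, with 1.70, 20.5, 20.6 and 0 CPM in mA1 and 14.7, 21.0, 6.45 and 19.7 CPM in Con. A count of 0 in mA1 tumour 4 allows up to 5.27 CPM, by 3 counts of its total. Eomes was at 27.2, 51.2, 20.6 and 45.7 CPM in mA1 and 32.3, 60.7, 43.5 and 100.04 CPM in Con. Tbx21 had a log2 fold change of -0.38 ± 0.33 (SE), and -0.87 without mA1 tumour 3, whose 39.1 CPM was the highest of the 8. None of these 3 genes parted the groups.

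Cd27 averaged 132 ± 26.2 CPM in mA1 and 147 ± 32.8 CPM in Con CD8 T cells, with a log2 fold change of -0.07 ± 0.15 (SE) that was 0.22 without Con library 2. Ltb averaged 589 ± 43.7 CPM in mA1 and 579 ± 17.8 CPM in Con, Crtam 26.1 ± 6.10 CPM in mA1 and 26.2 ± 0.624 CPM in Con, and Cd226 102 ± 16.9 CPM in mA1 and 118 ± 7.74 CPM in Con (SD, n = 4 each). Itgam, with 57 UMIs, did not pass the filter on low counts. The groups overlapped for all 5.

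Per CD8 T cell, the 3 early genes together had 2.98, 3.74, 3.76 and 4.59 UMIs in mA1 tumours, against 2.95, 2.68, 3.90 and 4.05 in Con tumours. The 3 late genes had 0.279, 0.507, 0.657 and 0.212 UMIs in mA1, against 0.721, 0.487, 0.520 and 0.857 in Con. Both sums overlapped between the groups, with median depths of 4123 to 5081 UMIs per cell in mA1 and 3425 to 4733.5 in Con.

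**Figure D2:**
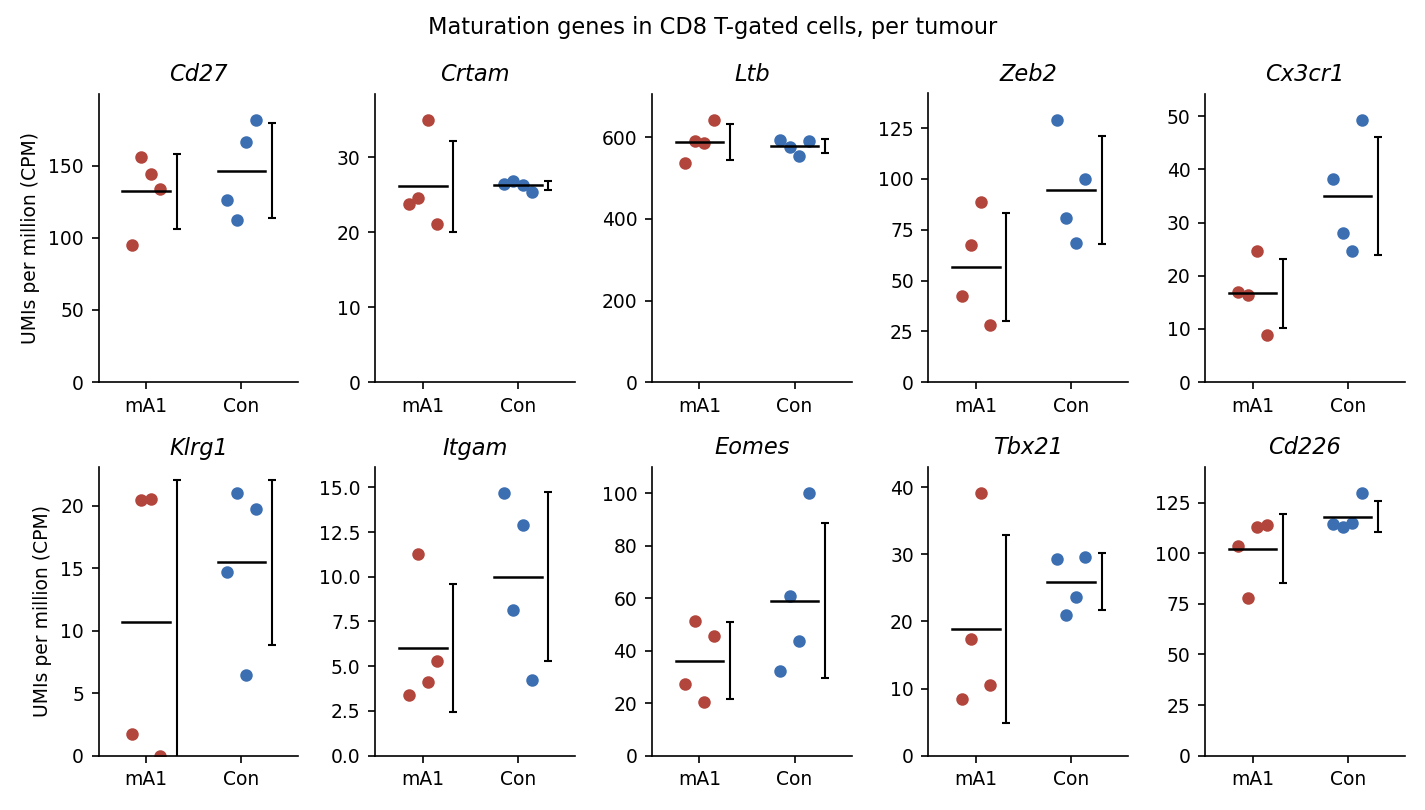
Level of each maturation gene in CD8 T-gated cells, in CPM (linear axis from 0), with 1 point per tumour, mA1 left of Con, means as lines and SDs as bars (n = 4 each). Cx3cr1 is the one gene whose mA1 points, 8.78 to 24.7 CPM, all lie below the Con points.

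None of 5703 genes passed edgeR's test between the groups in CD8 T cells (0%), with 492 at an unadjusted p under 0.05 and 1 called by DESeq2. Without Con tumour 2 the count was 62. For 4.44% of the genes every mA1 tumour lay below every Con tumour, and for 1.21% above. The early list had a median log2 fold change of 0.05 over 17 tested genes and the late list 0.02 over 16, beside 0.01 over all genes. In the late list Gzma (-1.59 ± 0.92, SE; adjusted p = 0.709), Prdm1 (-1.22 ± 0.38, adjusted p = 0.386) and Gzmb (-1.19 ± 0.35, adjusted p = 0.386) had the lowest values and did not pass. Of the 16 late genes, 9 had a positive and 7 a negative log2 fold change. The medians were -0.19 over 10 regulators and 0.20 over 6 partners, with no call in any list. Cells with a UMI of the naive T cell markers Ccr7 or Lef1 were 58.6% to 78.8% of CD8 T cells in mA1 tumours and 44.2% to 77.9% in Con tumours. Among the CD8 T cells without one, the log2 fold change was -1.06 for Cx3cr1, -0.71 for Zeb2 and 0.38 for Ltb. Whether the effect of the label differed between NK and CD8 T cells was not tested.

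CD4 T cells, which the rule did not use, gave no call either. The 5 other members (Crtam, Cx3cr1, Itgam, Eomes and Tbx21) did not pass the filter on low counts there. Among the 5 tested, Cd27 was at 97.3, 113, 78.5 and 92.6 CPM in mA1 and 49.98, 81.8, 72.7 and 89.1 CPM in Con. Its log2 fold change was 0.40 ± 0.18 (SE; adjusted p = 0.63, edgeR). The groups overlapped, where 1.47% of genes had every mA1 tumour above and 3.28% below every Con tumour. Ltb (0.10 ± 0.12, adjusted p = 0.918), Klrg1 (0.33 ± 0.39, adjusted p = 0.912), Cd226 (-0.12 ± 0.18, adjusted p = 0.94) and Zeb2 (-0.00046 ± 0.73, adjusted p = 1.0) did not pass. In Con tumour 1 a single cell held 10 of the 18 Zeb2 UMIs. The early list had a median of 0.03 over 15 tested genes and the late list -0.18 over 13, with no call in these or the other lists. None of 5699 genes was called (0%), with 422 at an unadjusted p under 0.05 and 2 called by DESeq2.

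Between NK and CD8 T cells of the same tumours the early and the late members lay on opposite sides. These classes are different lineages, and stage within a lineage was not tested by this contrast. The late genes and 3 of the other 4 were higher in NK cells, and the early genes and Cd226 were lower. All 10 passed edgeR's test with the tumour as a block, against 41.2% of 7451 genes, so that a call by itself was common in this contrast. The members were chosen by their levels in these same cells. Their calls here are therefore not independent support, and their p-values are not given. The 6 members that were higher compare with 20.8% of genes called higher, and the 4 that were lower with 20.4% called lower.

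Itgam showed the largest member difference, with a log2 fold change of 4.63 ± 0.15 (SE). It was at 199.9 to 378 CPM in NK cells and 3.40 to 14.7 CPM in CD8 T cells. Klrg1 was higher by 3.79 ± 0.34, Zeb2 by 3.10 ± 0.19 and Tbx21 by 2.76 ± 0.14. For Eomes and Cx3cr1 the differences were 1.82 ± 0.20 and 1.69 ± 0.16. In each of these 6 genes the lowest tumour's NK cells stood above the highest tumour's CD8 T cells. The share of all tested genes that parted so fully is not given here, so this describes levels only.

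Ltb had the lowest value of the members, with a log2 fold change of -3.68 ± 0.28 (SE). It was at 20.6 to 126 CPM in NK cells and 536 to 643 CPM in CD8 T cells. Crtam was at -1.81 ± 0.30, Cd27 at -1.63 ± 0.22 and Cd226 at -1.22 ± 0.11. The Cd27 ranges nearly met, at 36.1 to 95.2 CPM in NK and 95.2 to 182 CPM in CD8 T cells. The ranges of Crtam and Cd226 overlapped between the classes. All 10 members kept their direction in the 17 alternatives run. Zeb2 has an antisense neighbour in the annotation, Zeb2os, with 56 UMIs in NK cells beside 3991 of Zeb2, and whether the counting used strand is not given in the sources used here.

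**Figure D3:**
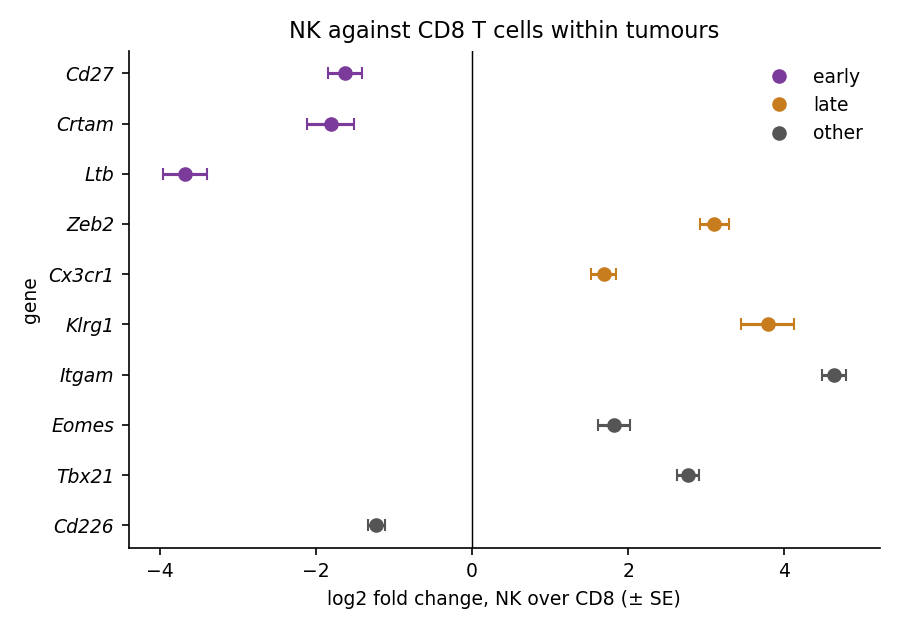
Log2 fold change of each member in NK over CD8 T cells within tumours (edgeR, tumour as a block, 8 tumours), with bars of 1 SE. The late genes lie at 1.69 to 3.79 and the early genes at -3.68 to -1.63.

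The early and late lists lay mostly on the same sides as the members. They were chosen with earlier results of these data known, so the counts are a description. Of 17 early genes tested, 14 were lower in NK cells and 3 higher, with a median of -2.24 beside 0.02 over all genes. Lower were Ccr7 (-6.91), Il7r (-4.89), Tcf7 (-3.73), Id3, Lef1, Thy1, Cd28, Emb, Myb, Socs3, Cxcr3, Ikzf2, Bach2 and Ctla2a, many of them genes of naive T cells. Those that were higher included Xcl1 (1.74), a chemokine, and Cd7 (0.78). Of 18 late genes 16 were higher, with a median of 1.61. They were led by the chymase gene Cma1 (8.45), granzyme A (Gzma, 6.001) and perforin (Prf1, 4.35), followed by the egress receptor S1pr5 (3.79), Gzmb, Prdm1, Fasl, Nkg7, Id2, Ccl5, Lgals1, Ly6c2, Spn, Itgb1, Klf2 and S100a6. S1pr1 (-2.45) and S100a4 (-1.56) were lower.

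Of 12 regulators, 6 were higher in NK cells and 5 lower. Irf8 (5.41), Nfil3 (1.87), Id2 (1.66), Bhlhe40 (1.29), Stat4 (0.76) and Ikzf3 (0.75) were higher. Foxo1 (-1.16), Tox (-1.10), Zeb1 (-0.97), Ets1 (-0.63) and Runx3 (-0.20) were lower, and Gata3 (0.25 ± 0.14, SE; adjusted p = 0.154) did not pass. Zeb1 and Zeb2, related zinc-finger repressors, thus lay on opposite sides. Among 6 tested partners, Itgb2, the beta chain that pairs with the Itgam product, was higher (1.76 ± 0.09, SE) and Cd96, which shares ligands with Cd226, was lower (-1.29 ± 0.15).

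Promoters of members that part NK from CD8 T cells are shown because short sequence motifs of the regulators could be looked for in them. RefSeq windows of 250 bases before and 50 after a start site (GRCm38.p6) were at hand for 7 of the 10 members. The letters TCACACC (a T-box site), CACCTG (the E-box that ZEB factors bind) and TGTGGT (Runx) were searched on both strands, and no matches overlapped. All 3 matches lie on the strand opposite to the gene, so that the capitals below spell the reverse complement, CAGGTG or ACCACA. The E-box was found in 2 members, Ltb at position -66 and Tbx21 at -196, and in 20.2% of 32851 promoters. The Runx letters were found in Cx3cr1 at -54 and in 16.8% of promoters, and the T-box letters in no member and 3.98% of promoters. A match is a description of letters, not of binding. The windows with a match follow 5′ to 3′ on the gene's strand, with the match in capitals. They are chr17:35194257-35194556 on the plus strand for Ltb, chr11:97115282-97115581 on the minus strand for Tbx21 and chr9:120068247-120068546 on the minus strand for Cx3cr1.
Ltb: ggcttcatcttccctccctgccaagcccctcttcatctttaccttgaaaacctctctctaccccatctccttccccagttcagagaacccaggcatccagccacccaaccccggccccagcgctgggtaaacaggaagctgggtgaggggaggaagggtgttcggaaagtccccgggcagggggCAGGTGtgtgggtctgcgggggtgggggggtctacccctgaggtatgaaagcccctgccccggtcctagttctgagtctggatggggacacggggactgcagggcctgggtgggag
Tbx21: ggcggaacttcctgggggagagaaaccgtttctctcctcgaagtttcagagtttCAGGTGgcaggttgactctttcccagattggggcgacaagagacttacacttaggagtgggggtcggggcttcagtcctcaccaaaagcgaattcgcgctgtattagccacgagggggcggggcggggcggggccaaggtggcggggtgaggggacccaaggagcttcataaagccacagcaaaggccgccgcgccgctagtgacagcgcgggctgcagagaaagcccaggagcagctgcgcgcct
Cx3cr1: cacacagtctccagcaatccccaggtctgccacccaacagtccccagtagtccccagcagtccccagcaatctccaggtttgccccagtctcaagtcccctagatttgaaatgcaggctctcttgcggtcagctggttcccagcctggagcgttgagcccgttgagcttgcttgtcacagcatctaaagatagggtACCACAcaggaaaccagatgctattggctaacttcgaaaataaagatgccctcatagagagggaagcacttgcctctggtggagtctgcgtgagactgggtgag

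In genome order by GRCm38.p6, Zeb2 lies on chromosome 2 (44983512 to 45117442) and chromosome 6 holds Klrg1 (122270596 to 122282833) and Cd27 (125232620 to 125237136). Itgam is on chromosome 7 (128062640 to 128118491). Chromosome 9 holds Crtam (40972798 to 41004628), Eomes (118478186 to 118486132) and Cx3cr1 (120048683 to 120068296). Tbx21 is on chromosome 11 (97098007 to 97115331), Ltb on 17 (35194507 to 35196305) and Cd226 on 18 (89176954 to 89272232).

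Across 8 immune classes, each late gene had its highest mean CPM in NK cells. In UMIs per cell, macrophages stood above NK cells for Zeb2 (6.01 against 2.18) and Cx3cr1 (1.58 against 0.279). Means are over 8 tumours (7 for dendritic cells), and the gates other than NK, CD8 T and CD4 T serve levels only. Zeb2 was at 825 ± 119 CPM in NK cells, 386 ± 11.1 CPM in macrophages and 312 ± 30.6 CPM in neutrophils, and these 3 did not overlap. Dendritic cells (114 ± 30.8 CPM), CD8 T (75.6 ± 31.9 CPM), gamma-delta T (72.5 ± 38.7 CPM), B (62.3 ± 24.4 CPM) and CD4 T cells (43.4 ± 21.2 CPM) followed with overlapping ranges. Cx3cr1 was at 105 ± 20.4 CPM in NK cells and 101 ± 37.2 CPM in macrophages, which did not differ beyond their spread, and at 25.9 ± 12.9 CPM in CD8 T cells. Klrg1 was at 229 ± 43.7 CPM in NK cells and next at 30.0 ± 13.8 CPM in CD4 T cells, without overlap.

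The early genes peaked in T cells. Cd27 was highest in CD8 T cells (139 ± 28.6 CPM), then CD4 T (84.3 ± 18.6 CPM), NK (66.0 ± 22.7 CPM) and gamma-delta T cells (61.7 ± 36.6 CPM), and each neighbouring pair overlapped. Ltb was highest in gamma-delta T cells (874 ± 163 CPM), then CD4 T (739.9 ± 100.3 CPM), CD8 T (584 ± 31.4 CPM), B cells (460.4 ± 128 CPM) and neutrophils (289.8 ± 74.3 CPM), with overlap between neighbours. NK cells, at 69.9 ± 38.0 CPM, stood below all 5 without overlap. Crtam was at 26.2 ± 4.01 CPM in CD8 T and 13.2 ± 10.4 CPM in NK cells, whose ranges overlapped.

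Itgam was shared by neutrophils (301 ± 48.0 CPM) and NK cells (276 ± 70.0 CPM), with overlapping ranges. Eomes (229.9 ± 38.8 CPM) and Tbx21 (195 ± 23.1 CPM) were highest in NK cells without overlap, with Eomes next in CD8 T (47.6 ± 24.9 CPM) and Tbx21 next in gamma-delta T cells (28.5 ± 18.7 CPM). Cd226 was highest in gamma-delta T cells (212 ± 64.0 CPM), then CD8 T (110.1 ± 14.8 CPM), CD4 T (99.97 ± 19.5 CPM) and NK cells (62.3 ± 9.43 CPM), with overlap between neighbours.

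**Figure D4:**
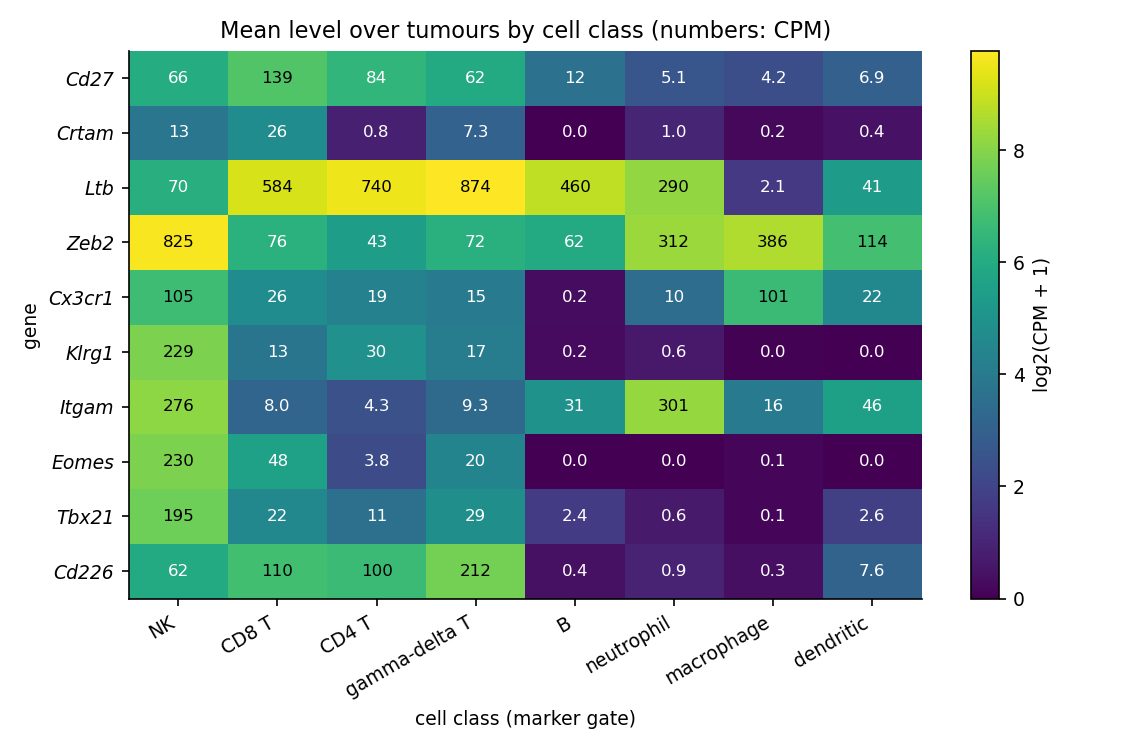
Mean level of each member in 8 immune classes, coloured on a log2(CPM + 1) scale with the mean CPM written in each cell. Zeb2, Klrg1, Eomes and Tbx21 are highest in NK cells, Ltb and Cd226 in gamma-delta T cells, and Itgam in neutrophils and NK cells.

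Most ligands of the members had their highest levels outside the lymphocytes. Over the 4 libraries, Nectin2, a ligand of CD226, averaged 178 CPM in epithelial cells and 0.112 CPM in NK cells, and Pvr, the other ligand, 45.7 CPM in epithelial cells. Cadm1, the ligand of CRTAM, was at 92.3 CPM in epithelial and 79.3 CPM in dendritic cells. Cdh1, a ligand of KLRG1, was at 229.97 CPM in epithelial cells and 104 CPM in macrophages. Ltbr, the receptor for lymphotoxin, was highest in fibroblasts (70.0 CPM, over 3 libraries), and Cx3cl1, the ligand of CX3CR1, reached 16.6 CPM in epithelial cells. Cd70, the ligand of CD27, stayed at or below a mean of 2.88 CPM in every class.

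Genes whose level ran most like 2 of the members were taken over 40 points, 5 lymphocyte classes in 8 tumours, among 5291 genes. For Cd27 they were Lck (Pearson r = 0.91), Ifi27 (0.91), Lef1 (0.90), Ubash3a (0.88) and Stk4 (0.88). For Zeb2 they were Borcs7 (0.92), Arsb (0.91), Klrb1a (0.91), Il10rb (0.90) and Styk1 (0.89). The points share tumours and libraries and fall by class, so these values are a description without a test.

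Within CD8 T cells, those with a Cd27 UMI had less Zeb2. Cells were thinned to 1000 UMIs, split by a Cd27 UMI and summed at full depth per tumour and side, which left 177 Cd27-positive and 1062 Cd27-negative cells in 7 tumours. In the mA1 tumours 1 to 3, Zeb2 was at 0, 15.2 and 19.4 CPM in Cd27-positive cells, against 47.5, 75.8 and 96.6 CPM in Cd27-negative cells. In the 4 Con tumours it was at 26.1, 60.5, 33.7 and 37.5 CPM in Cd27-positive cells, against 142, 82.7, 74.8 and 114 CPM in Cd27-negative cells. Zeb2 was lower on the Cd27-positive side in 7 of 7 tumours.

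The log2 fold change of Zeb2, Cd27-positive over Cd27-negative, was -1.54 ± 0.28 (SE; adjusted p = 3e-05, edgeR with the tumour as a block). Of 4848 genes 37 were called (0.763%), 36 of them lower (0.743%), and Cd27 itself was the one higher (0.0206%), by construction. Among the other 7 members tested Zeb2 was the one called. Of the macrophage and monocyte markers tested 1 of 5 was lower on the Cd27-positive side, Ear2, and of the neutrophil markers 2 of 2, S100a8 (-5.69) and S100a9 (-4.68). Zeb2 itself was at 386 CPM in macrophages, and 14 of 1155 Cd27-negative but 0 of 183 Cd27-positive CD8 T cells had over 1% myeloid marker UMIs. Without such cells Zeb2 was at -1.47 ± 0.28 (adjusted p = 0.000352). On the unthinned split it was -1.04 and did not pass (adjusted p = 0.159).

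Cx3cr1 was at -1.64 ± 0.51 in CD8 T cells (SE; adjusted p = 0.147), with 8 UMIs in Cd27-positive and 148 in Cd27-negative cells. Eomes (0.41 ± 0.28), Tbx21 (0.63 ± 0.40) and Crtam (0.65 ± 0.36) had positive values that did not pass, and Cd226 (-0.37 ± 0.20) and Ltb (-0.09 ± 0.11) negative ones. Icam1, an adhesion ligand of Itgam with its highest mean in neutrophils (264 CPM), was lower (-1.43 ± 0.36, adjusted p = 0.0144, edgeR). That call was lost in 7 of the alternatives. The early and late lists gave medians of -0.02 and 0.04, beside -0.02 over all genes.

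In NK cells the split rested on 3 tumours, mA1 tumour 2 and Con tumours 2 and 3, with 50 Cd27-positive and 929 Cd27-negative cells. Cx3cr1 had 0 UMIs in the Cd27-positive cells of mA1 tumour 2, against 63 in its Cd27-negative cells. It had 0 and 3 UMIs in the Cd27-positive cells of the Con tumours, against 44 and 215 in the Cd27-negative ones. Summed, the level was 22.8 CPM in Cd27-positive and 120.5 CPM in Cd27-negative cells, a ratio of 0.19 (95% exact interval 0.0389 to 0.559, counting error only). The fitted log2 fold change was -2.41 ± 0.65 (SE; adjusted p = 0.0313, edgeR), with 29 of 4689 genes called (0.618%), 27 of them lower (0.576%) and 2 higher (0.0427%). The lower ones held 3 of 5 macrophage and monocyte markers tested, Lyz2 (-2.95), Chil3 (-3.13) and Ear2 (-4.00), and S100a9 (-2.88) of 2 neutrophil markers. The Cx3cr1 call was lost by DESeq2 (adjusted p = 0.999), without cells rich in myeloid markers (-2.32, adjusted p = 0.199) and without any 1 of the 3 tumours (adjusted p = 0.13 to 0.84).

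Zeb2 in NK cells was at 561, 651 and 778 CPM on the Cd27-positive side of mA1 tumour 2, Con tumour 2 and Con tumour 3, against 714, 718 and 964 CPM on the Cd27-negative side. It was lower in 3 of 3 tumours, with a log2 fold change of -0.41 ± 0.23 (SE; adjusted p = 0.836) that did not pass. Klrg1 (-0.52 ± 0.33), Itgam (-0.01 ± 0.27), Ltb (0.32 ± 0.53), Eomes (0.11 ± 0.29), Tbx21 (0.03 ± 0.32) and Cd226 (0.29 ± 0.51) did not pass either. Itgam had 305 CPM on the Cd27-positive and 313 CPM on the Cd27-negative side. When cells were split by any Cd27 UMI without thinning, so that depth per cell was not matched, Zeb2 (-0.76 ± 0.11, adjusted p = 6.67e-06), Klrg1 (-1.02, adjusted p = 0.000161), Itgam (-0.69, adjusted p = 0.00221), Cx3cr1 (-1.26, adjusted p = 0.00102) and Tbx21 (-0.61, adjusted p = 0.0313) were lower and Ltb (1.42, adjusted p = 0.00508) higher.

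Other than members, 2 genes of the lists were called in the NK split. Ctla2a, a cysteine protease inhibitor, was higher (0.89 ± 0.21, SE; adjusted p = 0.00558) and S100a4 was lower (-1.93 ± 0.43, adjusted p = 0.00189). Both calls were lost without mA1 tumour 2 and by DESeq2, that of Ctla2a also without Con tumour 3 and with no filter on low counts (0.65), and that of S100a4 on the unthinned split, where its value was -0.31. Of 10 early genes tested 9 had a positive value (median 0.69), and of 18 late genes 16 a negative one (median -0.30), where 42.8% of all genes were positive with a median of -0.08. Both lists were chosen with earlier results of these data known, so these counts are a description. Myeloid-rich cells were 0 of 80 Cd27-positive and 13 of 1583 Cd27-negative NK cells over all tumours.

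**Figure D5:**
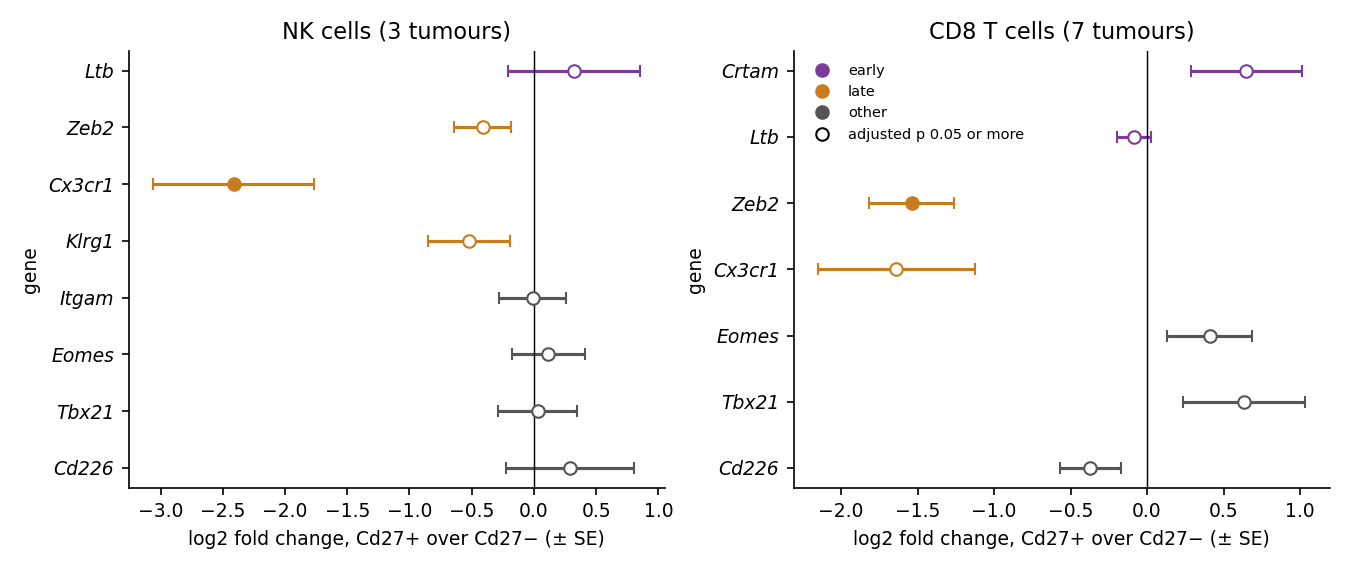
Log2 fold change of each member tested other than Cd27, in Cd27-positive over Cd27-negative cells of the same tumour, with bars of 1 SE and filled points at an adjusted p under 0.05. Cx3cr1 in NK cells (-2.41) and Zeb2 in CD8 T cells (-1.54) are the filled points.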

How the data were processed

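Droplet libraries (10x 3′ v3 chemistry, per the labels' protocols) were counted with Cell Ranger 6.0.1 on mm10, per the submitters' processing notes, and the authors deposited matrices of UMI counts per gene and barcode with no normalization. Members and gene lists were chosen with earlier results of these data known. Barcodes under 500 UMIs or 250 genes, or over 15% mitochondrial UMIs, were left out. Hashtags were called with a 2-component Gaussian mixture (posterior 0.5), and cells with both hashtags (112 to 301 per library) were left out as doublets. No doublet caller was run, and 112 to 406 doublets per library within a tumour are estimated to remain. Cells with 2 or more UMIs of other lineages were left out of the gates. UMIs were summed per tumour and gate and tested with edgeR 4.0.16 in R 4.3.3 (TMM, quasi-likelihood, Benjamini-Hochberg adjustment over all genes, called at 0.05), with the tumour as a block where 2 cell sets of a tumour are compared. Thinning drew 1000 UMIs per cell. DESeq2 1.42.0, other filters and gates, clusters (scanpy 1.11.5, leidenalg 0.10.2), leaving out each tumour, both tumours of Con library 2 or shared barcodes were the alternatives. Those without myeloid-rich cells, CD8 T cells marked by Ccr7 or Lef1 or shared barcodes, and the crossed pairing, were chosen after seeing the data. The fits were checked on simulated counts. Intervals and floors cover counting error only. The text names all members and every called gene of the lists but 1 of the early list, which is not reported here. Free RNA can add UMIs to cells that do not express a gene.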

Additional observations from a re-analysis of the deposited data

Results flagged for a closer look

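Among 60 sets of 4 tumours (a member, a cell class and a group), 5 held a tumour far from the other 3, where chance gives about 1 in 20, or 3. In CD4 T cells of Con tumour 1, Cx3cr1 was at 115 CPM against 3.72 to 12.1 CPM in the other Con tumours, and 22 of its 23 UMIs came from 1 cell. In the same tumour Zeb2 was at 89.96 CPM against 32.5 to 38.6 CPM, with 10 of 18 UMIs in 1 cell. Itgam in CD4 T cells of mA1 tumour 2 was at 14.6 CPM against 0 to 2.21 CPM in the other mA1 tumours, with 5 of 11 UMIs in 1 cell. Cd226 was at 94.8 CPM in CD4 T cells of Con tumour 2 against 108.6 to 109.95 CPM in the other Con tumours, and at 129.6 CPM in CD8 T cells of Con tumour 4 against 113 to 115 CPM.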

How the results depend on the processing

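Counts of genes called by edgeR moved with the processing. Between mA1 and Con NK cells 16 genes became 47 with no filter on low counts, 6 without Con library 2, 2 with libraries as samples and 6 to 17 when 1 tumour was left out. In CD8 T cells 0 became 1 by DESeq2 or without Con library 2, 12 with no filter, 11 with clusters and 0 to 62 when 1 tumour was left out. In CD4 T cells 0 became 2 by DESeq2, 31 with no filter, 1 with libraries as samples and 0 to 2 when 1 tumour was left out. NK against CD8 gave 2589 to 3078 when 1 tumour was left out, beside 3070. The NK split by Cd27 gave 6 by DESeq2 or without myeloid-rich cells, 123 unthinned and 6 to 24 when 1 tumour was left out, beside 29. The CD8 split gave 8 by DESeq2, 116 with no filter, 21 without Con library 2, 11 without myeloid-rich cells, 4 unthinned and 19 to 36 when 1 tumour was left out, beside 37. Without Con library 2 the sign turned, beyond the spread where there was no test, for Klrg1 (0.13) and Itgam (0.0073) in NK, Cd27 (0.22) in CD8 T and Ltb (-0.09) and Klrg1 (-0.33) in CD4 T cells. In CD4 T cells Zeb2, near 0, turned to 0.0045 with DESeq2 size factors, 0.029 with a stricter gate, 0.0011 at a 10% mitochondrial limit, 0.35 with clusters, 0.059 without shared barcodes, 0.33 without myeloid-rich cells and lay at -0.24 to 0.21 when 1 tumour was left out. Cd226 there turned to 0.14 with clusters and lay at -0.31 to 0.024 when 1 tumour was left out. In the NK split Ltb (-0.069), Itgam (0.071) and Tbx21 (-0.0084) turned by DESeq2, Itgam with DESeq2 size factors (0.042) and without Con library 2 (0.23), Eomes (-0.13) and Tbx21 (-0.21) with no filter, and Tbx21 without shared barcodes (-0.094), without myeloid-rich cells (-0.021) and unthinned (-0.61). Leaving out 1 tumour gave Eomes -0.18 to 0.48, Tbx21 -0.36 to 0.33, Cd226 -0.11 to 0.56 and Itgam -0.074 to 0.23 there, and Ltb -0.17 to 0.012 in the CD8 split, where Tbx21 turned to -0.20 unthinned. The cause was not tested. Values with no test turned within the spread for Cd226 in NK (-0.04 without Con library 2, -0.09 with clusters) and, in CD8 T cells, for Cd27 (0.06 with clusters, -0.16 to 0.05 when 1 tumour was left out), Crtam (-0.02 without Con library 2, -0.09 to 0.12 when 1 tumour was left out), Klrg1 (-0.96 to 0.16 when 1 tumour was left out) and thinned Ltb (-0.03). Thinning also turned Cd226 in NK (-0.14) and Itgam in CD8 T cells (0.47), beyond it. Of the other values, 827 kept direction and side of the threshold, 22 lost and 5 gained a call, and 6 moved beyond the spread with the same sign. Same-numbered libraries did not deviate together over genes (correlation -0.0092 in NK, -0.126 in CD8 T, -0.06 in CD4 T cells). In total UMIs they did, with 73377111 in mA1 library 1 and 74996867 in Con library 1. The values were 48319272 in mA1 library 2 and 54397659 in Con library 2. Whether the numbers name a shared batch cannot be told from 2 libraries per group. With the replicate block 12 genes were called in NK, 0 in CD8 T and 0 in CD4 T cells, and the crossed pairing called 1 in CD8 T cells.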
